A study of Mus musculus with 9 samples.

Results

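Kupffer cells are the resident macrophages of the liver. They sit inside the sinusoids, where they take up bacteria, debris and ageing red cells from portal blood, clear dying cells without inflammation and recycle iron from haem. Their survival depends on signalling through the receptor Csf1r, and in the mouse the lectin Clec4f is found on Kupffer cells and on few other macrophages. Marco, Spic, Timd4, Cd5l, Vsig4, Clec4f, Cd163, Adgre1, C1qa and Csf1r are 10 genes used to mark these cells and macrophages in general. They were matched by gene symbol in the deposited table of mouse liver, where all 10 were found among 49585 gene rows. The genes were chosen by their counts in these libraries, because macrophage transcripts were high in a single library, AG 1. Values that involve AG 1 are therefore given as a description, without support from a test.

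Liver RNA of male C57BL/6J mice was sequenced after ribosomal RNA depletion in 3 libraries per group. The mice were bought at 5 weeks of age, and all libraries are labelled as 14-week-old. MG mice lived for about 35 days in microgravity on the International Space Station, and AG mice lived there for the same time in a centrifuge at 77 rpm, labelled as 1 g in space. Each flight group held 6 mice, which were killed 2 days after splashdown, so the livers follow flight, landing and recovery. Ground control mice (GC) were kept for 35 days at 1 g in Japan under matching housing. Flight mice came from the Jackson Laboratory and ground mice from Charles River Laboratories, so flight and supplier cannot be told apart in either comparison with GC. Animals are not tied to libraries in the labels, so a p-value reflects only how far these libraries spread, in part perhaps for technical reasons.

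The libraries held between 6194521 and 8957331 counts. Levels are given as CPM, counts relative to a common library total after TMM scaling, and a level of 3 reads, taken as the floor of detection, corresponded to between 0.335 and 0.484 CPM. Intervals and floors here cover counting error only, since without molecular identifiers several reads can come from a single molecule. The tissue label was checked on markers of hepatocytes, 12 genes such as albumin whose summed level reached 125339 CPM in AG 1 and ranged from 110221 to 147406 CPM elsewhere. Transcripts of 12 skeletal muscle markers varied between libraries of every group, with sums from 0.450 to 697 CPM in GC, from 1.05 to 467 CPM in MG, and of 91.6, 0.497 and 16.5 CPM in AG 1, AG 2 and AG 3. In bulk liver, fewer macrophages and less RNA per macrophage cannot be told apart.

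In AG 1, 7 of the 10 genes were at least 2-fold above the mean of the other 8 libraries, against 4.63% of the 11884 genes with enough reads to be tested. The scavenger receptor gene Marco was 71.3-fold higher and the transcription factor gene Spic 21.9-fold higher, and they had the largest and second largest ratios of all tested genes. Clec4f and Cd163 were close to the other libraries, at 0.984 and 1.13 times the mean of the others. For 8 of the 10 genes AG 1 lay above each of the other 8 libraries, against 19% of all tested genes. These shares describe genes chosen for their level in AG 1, and nothing is read from them. Markers of B cells and several of neutrophils, most with few reads, were high in the same library. Whether all of its RNA came from liver was not tested, so its values are levels in that library. No difference between the groups was called for any of the 10 genes, with or without AG 1.

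**Figure D1:**
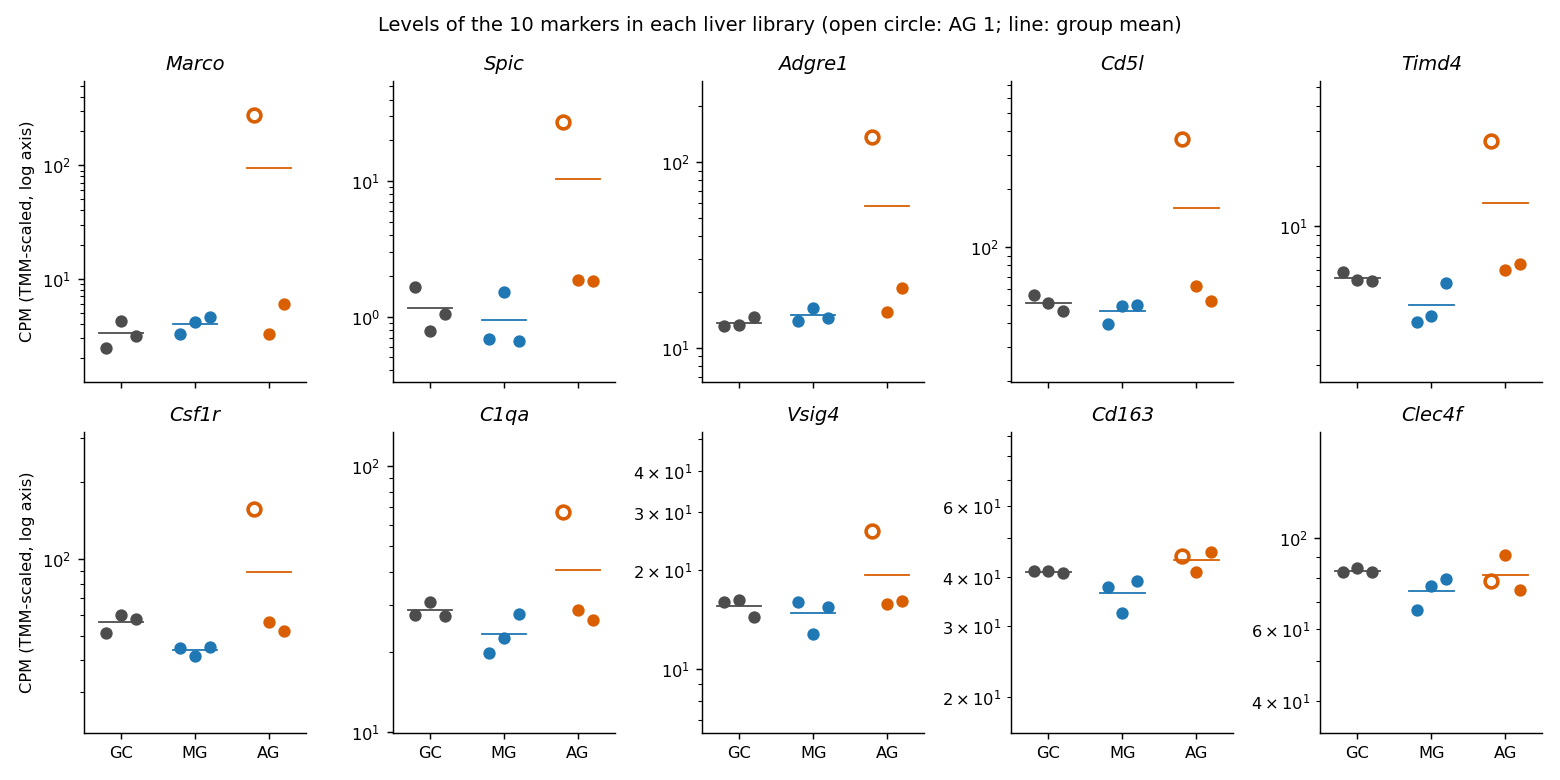
CPM of each of the 10 genes in the 9 liver libraries on a log axis, with groups along the horizontal axis, a line at the mean of each group and AG 1 as an open circle. AG 1 stands far above the other 8 libraries for Marco (277 against at most 5.97 CPM) and within their range for Cd163 and Clec4f.

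The first group of genes encodes receptors that bind particles and dying cells. Marco (ENSMUSG00000026390, chromosome 1 from 120474537 to 120505024) encodes a class A scavenger receptor that binds bacteria and is found on Kupffer cells and on marginal zone macrophages of the spleen. It was at 2.46, 4.25 and 3.15 CPM in GC 1, GC 2 and GC 3, at 3.27, 4.15 and 4.62 CPM in MG 1, MG 2 and MG 3, and at 277, 3.23 and 5.97 CPM in AG 1, AG 2 and AG 3. AG 1 held 1821 Marco reads where the other libraries held between 21 and 39, and without AG 1 the groups overlapped. Timd4 (ENSMUSG00000055546, chromosome 11 from 46810799 to 46844332) encodes a receptor for phosphatidylserine on dying cells and marks long-lived resident macrophages. It was at 5.86, 5.35 and 5.24 CPM in GC, at 3.27, 3.52 and 5.14 CPM in MG, and at 26.8, 5.96 and 6.42 CPM in AG, in the order of the library numbers. AG 1 was 5.26-fold above the mean of the others, and all 3 MG libraries lay below all 3 GC libraries.

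Vsig4 (ENSMUSG00000044206, chromosome X from 96247202 to 96293438) encodes a complement receptor for C3b fragments that captures particles from the blood. It was at 16.0, 16.2 and 14.4 CPM in GC, at 16.0, 12.8 and 15.4 CPM in MG, and at 26.2, 15.8 and 16.1 CPM in AG. AG 1 was the highest library, 1.71-fold above the mean of the others with a 95% counting interval of 1.44 to 2.01. Cd163 (ENSMUSG00000008845, chromosome 6 from 124304655 to 124330527) encodes the receptor that takes up haemoglobin bound to haptoglobin. It was at 41.3, 41.2 and 40.8 CPM in GC, at 37.7, 32.4 and 39.0 CPM in MG, and at 45.1, 41.1 and 46.0 CPM in AG, so that AG 3 and not AG 1 was the highest library. Clec4f (ENSMUSG00000014542, chromosome 6 from 83644541 to 83656187), the Kupffer cell lectin, was at 82.8, 84.8 and 82.6 CPM in GC, at 66.7, 76.5 and 79.5 CPM in MG, and at 78.6, 91.0 and 74.8 CPM in AG. AG 1 exceeded only 3 of the other 8 libraries for Clec4f.

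The second group marks the whole macrophage lineage or acts in complement. C1qa (ENSMUSG00000036887, chromosome 4 from 136895916 to 136898803) encodes the A chain of C1q, which starts the classical complement cascade. It was at 27.6, 31.0 and 27.4 CPM in GC, at 19.9, 22.5 and 27.8 CPM in MG, and at 67.1, 28.8 and 26.5 CPM in AG. Adgre1 (ENSMUSG00000004730, chromosome 17 from 57358685 to 57483529) encodes the F4/80 antigen, an adhesion receptor used to stain mouse macrophages. It was at 13.1, 13.2 and 14.7 CPM in GC, at 13.9, 16.5 and 14.5 CPM in MG, and at 137, 15.5 and 21.1 CPM in AG, so that AG 1 was 8.96-fold above the mean of the others. Csf1r (ENSMUSG00000024621, chromosome 18 from 61105571 to 61132149), the receptor for the growth factors Csf1 and Il34, was at 51.3, 60.4 and 58.1 CPM in GC, at 44.8, 41.5 and 45.2 CPM in MG, and at 158, 56.4 and 52.0 CPM in AG. AG 1 was 3.08-fold above the mean of the others for Csf1r and 2.54-fold for C1qa.

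The third group holds a nuclear factor and a plasma protein. Spic (ENSMUSG00000004359, chromosome 10 from 88674771 to 88685015) encodes an Ets transcription factor related to PU.1 that is needed for red pulp macrophages of the spleen and is induced by haem. It was close to the floor outside AG 1, with 5 to 15 reads in each of the other 8 libraries and 180 reads in AG 1. The levels were 1.64, 0.786 and 1.05 CPM in GC, 0.677, 1.51 and 0.659 CPM in MG, and 27.4, 1.86 and 1.84 CPM in AG. Cd5l (ENSMUSG00000015854, chromosome 3 from 87357880 to 87371073) encodes a secreted scavenger receptor family protein that binds IgM in plasma. It was at 56.1, 50.8 and 46.3 CPM in GC, at 39.5, 49.3 and 49.8 CPM in MG, and at 366, 62.8 and 51.9 CPM in AG. With 2406 reads in AG 1 it was the most abundant of the 10 genes there, 7.21-fold above the mean of the others. Nearly all reads of the 10 genes were placed at a unique position, 98.1% for Spic, 98.9% for Csf1r and 100% for the other 8.

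The members of the set that separated in AG 1 and those that did not are both represented in the RefSeq promoter table for GRCm38.p6, which matched 7 of the 10 genes; Adgre1, C1qa and Csf1r had no entry. The 250 bases before the start of Marco, Cd5l and Timd4, which were high in AG 1, and of Cd163, which was not, are printed so that their letters can be compared. They come from chr1:120505025-120505274 on the minus strand, chr3:87357631-87357880 on the plus strand, chr11:46810549-46810798 on the plus strand and chr6:124304401-124304650 on the plus strand, each written 5′ to 3′ in the direction of transcription. Capitals mark the letters GAGGAA, or their reverse complement, which is part of the sequence bound by PU.1 and its relative Spi-C.
Marco: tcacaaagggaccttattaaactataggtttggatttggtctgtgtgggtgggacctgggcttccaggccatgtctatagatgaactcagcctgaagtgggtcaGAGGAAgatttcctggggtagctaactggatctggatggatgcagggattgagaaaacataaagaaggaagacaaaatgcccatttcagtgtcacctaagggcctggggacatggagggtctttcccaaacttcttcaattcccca
Cd5l: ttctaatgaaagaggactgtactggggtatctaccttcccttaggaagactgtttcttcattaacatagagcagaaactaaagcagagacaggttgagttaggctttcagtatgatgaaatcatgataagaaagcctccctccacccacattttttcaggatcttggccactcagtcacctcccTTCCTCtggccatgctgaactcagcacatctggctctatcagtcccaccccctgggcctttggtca
Timd4: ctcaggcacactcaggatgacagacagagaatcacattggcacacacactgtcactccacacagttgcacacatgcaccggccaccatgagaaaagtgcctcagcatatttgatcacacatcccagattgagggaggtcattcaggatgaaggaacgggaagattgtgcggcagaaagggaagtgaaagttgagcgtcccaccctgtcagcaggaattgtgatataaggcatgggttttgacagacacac
Cd163: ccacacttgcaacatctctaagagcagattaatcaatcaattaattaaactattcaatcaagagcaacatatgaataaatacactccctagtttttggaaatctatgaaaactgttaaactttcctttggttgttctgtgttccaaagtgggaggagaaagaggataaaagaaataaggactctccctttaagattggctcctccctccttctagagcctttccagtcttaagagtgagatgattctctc

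GAGGAA was found on either strand in 3 of the 7 promoters searched: 1 match in Marco, whose first base lies at -146 from the start, 1 in Cd5l at -66 on the other strand, and 2 in Vsig4. The same letters occur in 23.25% of 32851 mouse promoters of this length. Spic, Timd4, Clec4f and Cd163 held no match, so genes that were high in AG 1 stood on both sides. The starts are those of RefSeq and can differ from the deposited gene spans given above. The Spic window (chr10:88683024-88683273) lies inside its deposited span, and the Clec4f window (chr6:83656117-83656366) overlaps its own. The MAF site TGCTGAC was found in Timd4 and in 3.811% of all promoters. The E-box CACGTG and the AGGTCA repeat bound by LXR receptors, searched as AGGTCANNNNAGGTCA, were in none of the 7, and in 6.021% and 0.01522% of all promoters. None of the 4 motifs contains another, both strands were searched, and a match or its absence is a description of the letters in this window.

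The size of the difference in AG 1 varied widely between the 10 genes. Per exon length, in RPKM as deposited by the authors, Clec4f was the most abundant of the 10 in each of the other 8 libraries, with 24.4% to 28.4% of their summed RPKM, while in AG 1 it held 5.88%. Marco held between 1.02% and 2.49% in the other libraries and 26.6% in AG 1, and Cd5l between 18.8% and 22.9% in the others and 33.3% in AG 1. The ratio of Marco to Clec4f in RPKM was 4.53 in AG 1, where the other libraries ranged from 0.0381 to 0.102. The ratio of Adgre1 to Clec4f was 1.33 in AG 1 and between 0.119 and 0.215 elsewhere, whereas that of Cd163 to Clec4f was 0.260 and between 0.192 and 0.279. For Spic the ratio to Clec4f was 0.226 in AG 1 against 0.00533 to 0.0158, and for Csf1r 1.02 against 0.274 to 0.365. Among these ratios to Clec4f only that of Cd163 was inside the range of the other libraries. In CPM, the 10 genes summed to 1209 in AG 1 and to between 246 and 322 in the others, and Marco and Cd5l made up 64.0% of the gain.

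**Figure D2:**
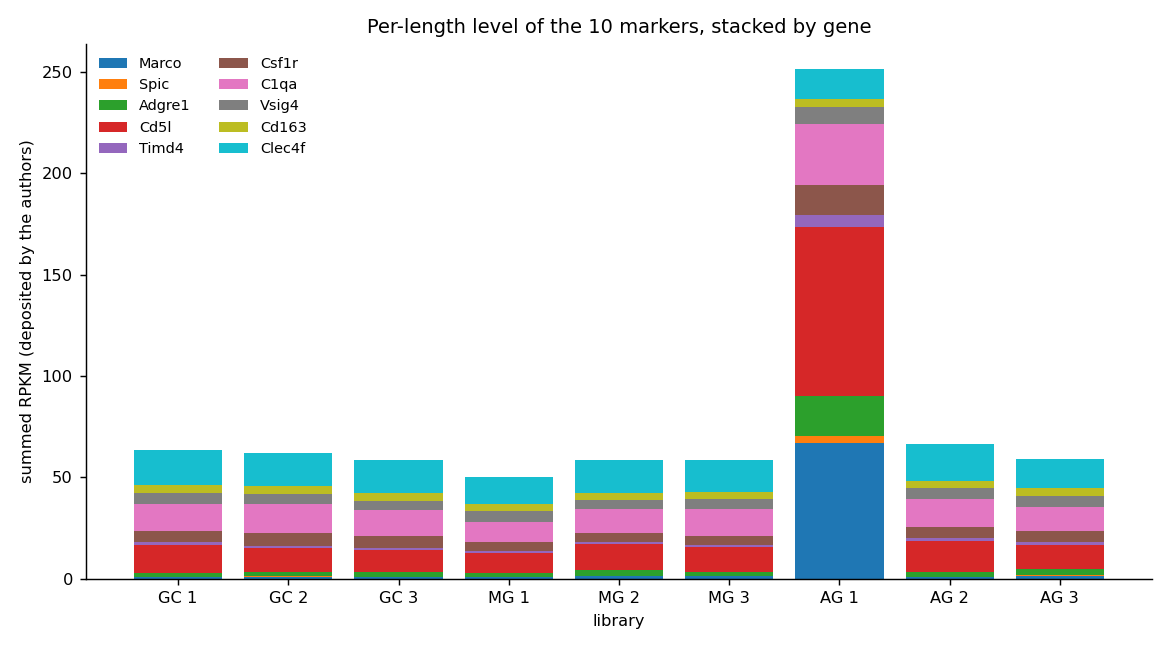
Deposited RPKM of the 10 genes stacked for each of the 9 libraries. Clec4f is the largest segment in each library except AG 1, where it holds 5.88% of the sum and Cd5l and Marco hold 33.3% and 26.6%.

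Reads in introns come from transcripts not yet spliced and were counted apart from the exon reads by the authors. Marco had 155 unique intron reads in AG 1 but only 0 to 5 in each other library, a 100-fold higher level than their mean. Intron reads were also higher in AG 1 for Spic (8.39-fold), Cd5l (6.77-fold), Adgre1 (5.36-fold), Timd4 (3.25-fold) and Csf1r (2.87-fold), in nearly the same order as the exon reads. Cd163, flat in exon reads, had 81 intron reads in AG 1 against 16 to 76 elsewhere, 2.59-fold above the mean of the others. Clec4f had 34 intron reads in AG 1, where the others had 36 to 64, 0.832 times their mean. Reads over exon junctions, which mark spliced transcripts, made up 57.2% of the Marco reads in AG 1 (95% Wilson interval 54.9% to 59.5%) and 51.9% in the other 8 libraries together (45.5% to 58.3%). For Cd5l the shares were 16.5% (15.1% to 18.0%) and 14.5% (13.3% to 15.8%). Junction shares of Marco and Cd5l are over all their unique exon reads in AG 1, not only those gained. The intervals in AG 1 and in the other libraries overlapped, and whether the shares differ was not tested.

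**Figure D3:**
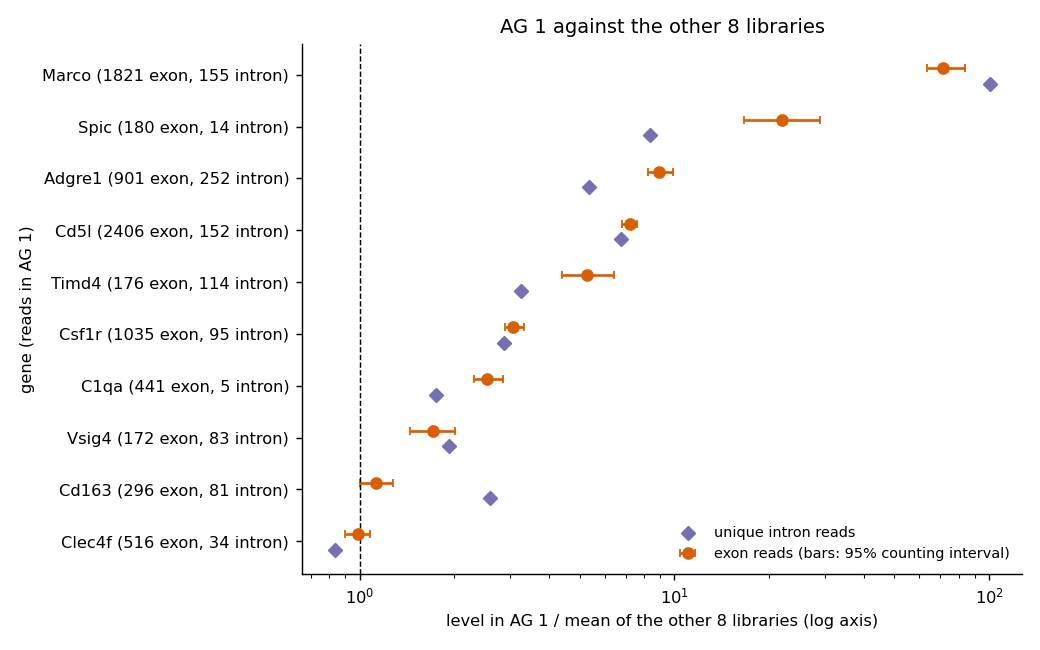
Ratio of the level in AG 1 to the mean of the other 8 libraries for each gene on a log axis, in exon reads with the 95% counting interval and in unique intron reads. Marco stands at 71.3 and 100, and Clec4f at 0.984 and 0.832.

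Set against GC, the MG libraries address how liver after microgravity differed from that on the ground, and no AG library enters this fit. Of the 10 genes 9 had enough reads to be tested, Spic being the exception, and 0 were called by edgeR's quasi-likelihood test, with Benjamini-Hochberg adjusted p-values and a threshold of 0.05, against 3.19% of 11679 genes. At an unadjusted p below 0.05 there was 1, Csf1r, against 18% of all genes, and DESeq2, which gave no adjusted p for Marco, and limma-voom called 0. The log2 fold change was negative for 7 of the 9, against 49.2% of all genes, and its median was -0.17 over the 9 and 0.00 over all genes. Csf1r was at 43.8 ± 2.06 CPM in MG and 56.6 ± 4.74 CPM in GC (SD, n = 3 each), a log2 fold change of -0.37 ± 0.09 (SE) with an edgeR adjusted p of 0.0697. All 3 MG libraries lay below all 3 GC libraries, and the adjusted p was between 0.0593 and 0.259 in the refits that used no AG 1 and kept at least 2 libraries a group. It was 0.710 with all 9 libraries, where AG 1 adds to the spread.

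In CPM, Timd4, Clec4f and Cd163 had MG libraries below all GC libraries too. So 4 of the 10 genes did not overlap in this direction, against 11.4% of tested genes, or 23.4% in either direction. In the deposited RPKM, Clec4f in MG 2 (16.7) lay above GC 2 (16.5) and GC 3 (16.1). Timd4 was apart only narrowly, at 5.14 CPM in MG 3 and 5.24 CPM in GC 3. Timd4 was at 3.98 ± 1.02 CPM in MG and 5.48 ± 0.327 CPM in GC, with an edgeR adjusted p of 0.321. Clec4f was at 74.3 ± 6.70 CPM and 83.4 ± 1.22 CPM (log2 fold change -0.17 ± 0.09, edgeR adjusted p = 0.362), and Cd163 at 36.4 ± 3.49 CPM and 41.1 ± 0.306 CPM (-0.18 ± 0.10, edgeR adjusted p = 0.375). The differences for these 3 genes did not pass the test. Over the other genes C1qa had a log2 fold change of -0.30 ± 0.14, Cd5l of -0.15 ± 0.12 and Vsig4 of -0.08 ± 0.13, and only Marco (0.30 ± 0.28) and Adgre1 (0.13 ± 0.13) were above 0. With GC 3, MG 1 and MG 3 alone, the MG and GC libraries with few muscle transcripts, Adgre1 turned to -0.06 and Vsig4 to 0.12, a setting chosen after seeing the data in which GC is a single library, assumed to vary like the MG libraries. The authors' deposited table gives an adjusted p of 1 between GC and MG for each of the 10 genes.

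**Figure D4:**
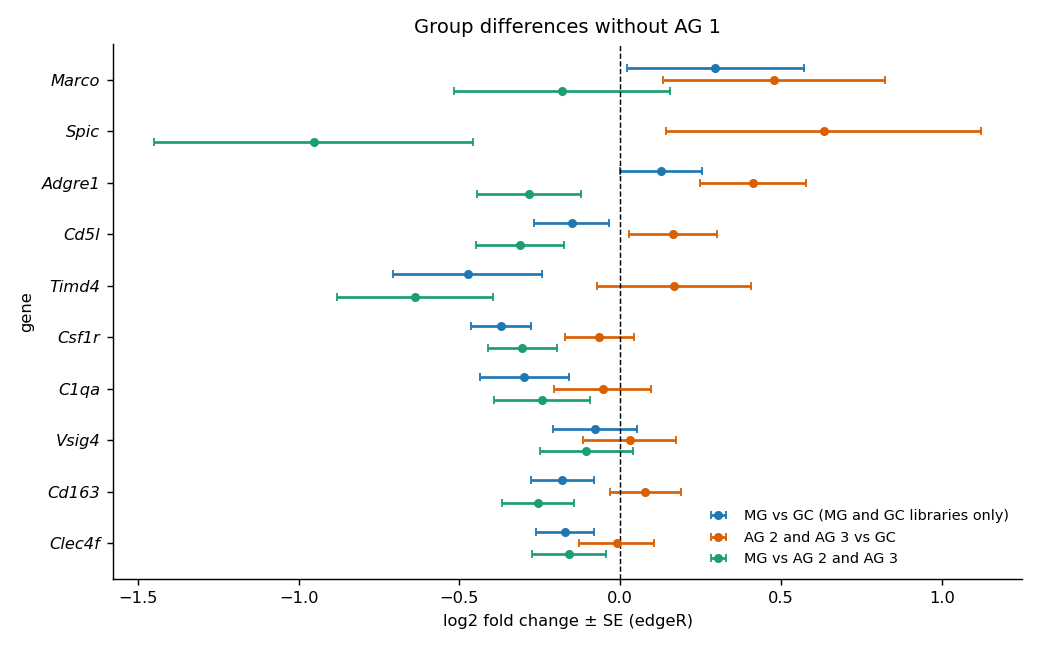
Log2 fold change with its standard error from edgeR for each gene in 3 comparisons that leave out AG 1, with 3 MG, 3 GC and 2 AG libraries. None of the values passed the adjusted threshold, Csf1r in MG vs GC coming closest at -0.37 ± 0.09, and Spic was not tested in MG vs GC.

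The comparison of AG with GC sets liver after 1 g in orbit against liver on the ground. With all 9 libraries it called 0 of the 10 genes and 0% of all 11884 genes, although 1199 genes had an unadjusted p below 0.05, and DESeq2 called 118 genes, none of the 10 among them. DESeq2 gave no adjusted p for Marco, Spic and Cd5l. Marco had the largest value, a log2 fold change of 4.87 ± 1.44, for group means of 95.5 ± 157 CPM in AG and 3.28 ± 0.902 CPM in GC (SD, n = 3 each). That SD exceeds its mean because AG 1 held nearly all of the reads. Without AG 1, Marco was at 0.48 ± 0.35, and the median over the 10 genes moved from 0.94 to 0.12, with 7 of 10 above 0 against 50.3% of all genes. C1qa and Csf1r then had values below 0, at -0.06 ± 0.15 and -0.06 ± 0.11. Without AG 1 none of the 10 was called by edgeR, against 0.00826% of 12104 genes, and 1 had an unadjusted p below 0.05, against 8.41% of them. This was Adgre1, with 15.5 and 21.1 CPM in AG 2 and AG 3 above all GC libraries, a log2 fold change of 0.41 ± 0.16 and an edgeR adjusted p of 0.536.

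The comparison of MG with AG holds flight, supplier and landing equal and differs in gravity during flight. All 10 genes had lower means in MG, with AG 1 and without it, against 48.4% of all genes without it. The median log2 fold change was -1.36 with AG 1 and -0.27 without, and over all genes it was 0.00 with and 0.01 without. None of the 10 was called by edgeR in either fit, against 0% of all genes with AG 1 and 0.0578% without, 0.0496% with MG lower. Without AG 1, 4 of the 10 had an unadjusted p below 0.05, against 7.79% of all genes. Without AG 1, Csf1r (-0.30 ± 0.11, edgeR adjusted p = 0.537), Timd4 (-0.64 ± 0.24, 0.566), Cd163 (-0.26 ± 0.11, 0.630), Cd5l (-0.31 ± 0.14, 0.630) and Spic (-0.95 ± 0.50, 0.706) had all MG libraries below AG 2 and AG 3. That makes 5 of 10 in CPM, against 11% of tested genes. In the deposited RPKM, MG 2 lay above AG 3 for Spic (0.247 against 0.227) and for Cd5l, so both genes overlapped on that scale. Spic had 12 reads in MG 2 and 12 in AG 3, so its separation in CPM rests on the scaling of the libraries. MG vs GC and MG vs AG share the MG libraries, so the lower values of Csf1r, Timd4 and Cd163 in both are not independent of each other. The 10 genes mark overlapping cells in the same libraries, so counts of them in any comparison are not counts of separate observations. Among the MG libraries, MG 1 was the lowest for Marco, Adgre1, Cd5l, Timd4, C1qa and Clec4f, MG 2 for Csf1r, Cd163 and Vsig4, and MG 3 for Spic.

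Other genes of macrophages, from lists chosen with earlier results of these data known, were set beside the 10. Of 30 tested genes found across macrophages, 24 were at least 2-fold higher in AG 1, with a median ratio of 3.03, against 4.63% of all genes. The most abundant were Mpeg1, a pore-forming protein of phagosomes (139 CPM in AG 1 against a mean of 47.4 in the others), Lgmn, a lysosomal protease (119 against 39.1), Lyz2, lysozyme (82.9 against 34.4), and C1qb, the B chain of C1q (104 against 33.8). Of 21 other tested genes described in Kupffer cells, 10 reached 2-fold, with a median ratio of 1.80. The most abundant of these lay near or below the others in AG 1: Paqr9 at 0.630 times, C6, a terminal complement component that hepatocytes make too, at 0.966 times, and Hpgd, a prostaglandin-degrading enzyme, at 0.884 times their mean, while Mrc1, the mannose receptor, was 1.52-fold higher.

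Of 17 tested transcription factors of macrophages 5 were at least 2-fold higher in AG 1 and 2 were at most at 0.5 times, against 2.57% of all genes. Nr1h3, the LXR receptor that maintains Kupffer cell identity, was at 0.969 times the mean of the others. Spi1, which encodes PU.1, was 5.63-fold higher and Runx1 8.11-fold higher, whereas Id3, a regulator needed for Kupffer cells, was at 0.462 times and its relative Id1 at 0.313 times. These 4 were picked after their values were seen. All are levels in bulk liver, and which cells the transcripts came from was not tested. Among 13 tested complement and Fc receptor genes 7 reached 2-fold, with Itgb2, the shared chain of the leukocyte integrins, at 11.9-fold. Of the 7, C1qb, C1qc and Fcgr1 were also counted above among genes found across macrophages, and Cfp and Fcgr4 among Kupffer cell genes. Among 12 genes of red cell and iron recycling 2 reached 2-fold, Hmox1, the haem-degrading enzyme, at 8.21-fold and Slc11a1, a phagosomal metal transporter, at 3.94-fold. None of 14 other tested scavenger receptor genes reached 2-fold, and Msr1, another class A receptor, was at 1.19 times. Of 6 tested cytokine genes 1 reached 2-fold, and Arg1, which hepatocytes make, was at 0.576 times the mean of the others. Of all 18 genes of the cytokine list, most with too few reads to be tested, 8 lay above each of the other 8 libraries. That stands against 19% of tested genes and 19.1% of genes with reads but too few to be tested. Il6 and Il12b were at 0 in AG 1. The iron, scavenger receptor and cytokine lists each held 1 gene at most at 0.5 times, against the same 2.57% of all genes. These were Hamp at 0.384 times (355 against 925 CPM), Scara5 at 0.341 times and Ccl24, with 2 reads in AG 1, at 0.214 times. Itgb2, Hmox1, Slc11a1 and Msr1 were picked after their values were seen.

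**Figure D5:**
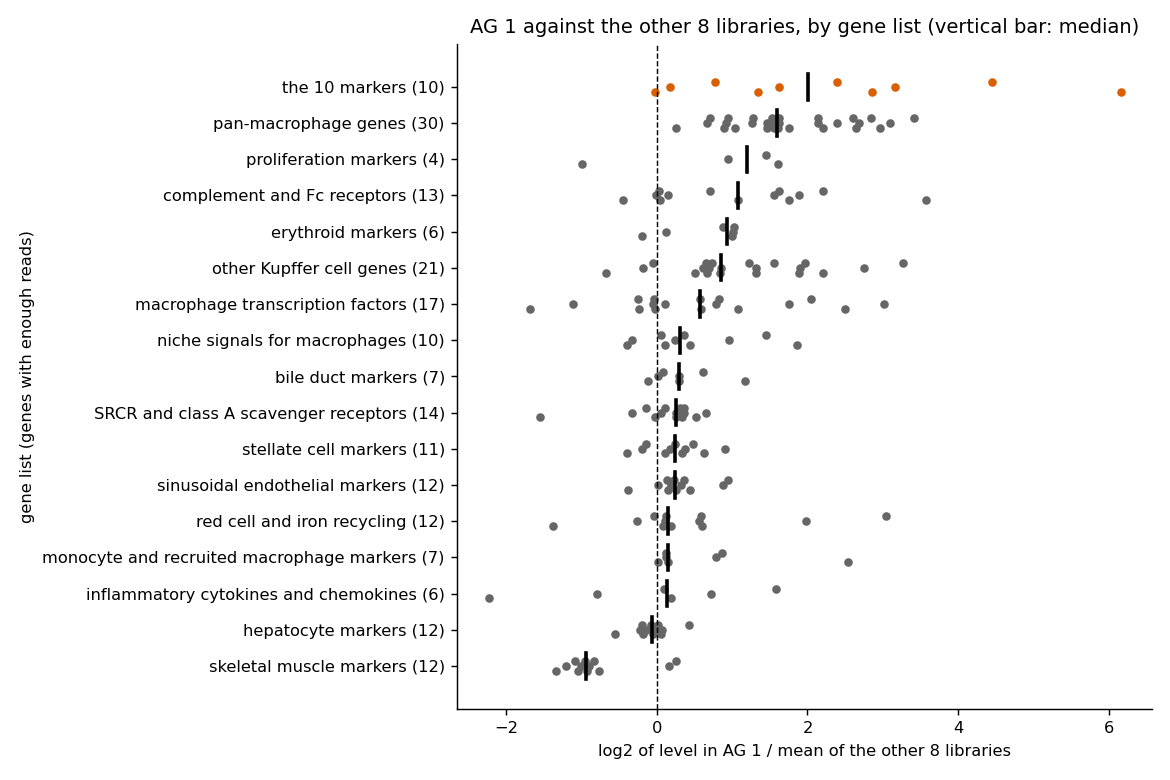
Log2 ratio of AG 1 to the mean of the other 8 libraries for each tested gene of the lists with at least 4 tested genes, with a vertical bar at the median of a list. The 10 markers have a median of 2.01 and spread from -0.02 to 6.16, and genes found across macrophages have a median of 1.60.

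Markers of several other cell types were higher in AG 1 as well. Counts of genes above each of the other 8 libraries stand against 19% of tested genes, and against 19.1% of 6797 genes with reads but too few to be tested. All 11 B cell markers with reads were above each of the others, 285 reads in all, with a summed level of 43.4 CPM in AG 1 against 5.39 to 10.5 in GC, 3.30 to 14.7 in MG and 3.97 and 5.20 in AG 2 and AG 3, and Igkc was at 0 throughout. Of 11 neutrophil markers 7 were, with 99 reads in all, a sum of 15.1 CPM against 0.765 to 3.46, and Ly6g and Camp at 0 in AG 1. Csf3r with 57 reads and S100a9 with 23 held most of these reads, while Mpo, Elane and Ngp lay above the others on 1 or 2 reads each. T and NK cell markers, with 40 reads, summed to 6.09 CPM against 2.37 to 4.40, with 4 of 12 above each of the others and Cd3d at 0 in AG 1. Dendritic cell markers summed to 23.3 CPM against 16.8 to 19.7, with 6 of 10 above each of the others. Nearly all of these blood cell markers had too few reads to be tested.

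Of liver cell types, 9 of 12 markers of sinusoidal endothelium were above each of the other 8 libraries, summed to 583 CPM against 449 to 529, and none reached 2-fold. Erythroid markers summed to 650 CPM against 245 to 556, with 5 of 9 above each of the others. The globin genes Hba-a1 and Hba-a2 were 2.01-fold and 2.04-fold higher. Among tested markers of this list, Alas2 and Klf1 were not above each of the others, at 0.877 and 1.09 times their mean. Proliferation markers summed to 27.2 CPM against 8.01 to 18.3, with 4 of 10 above each of the others. Mki67 at 13.1 CPM (2.73-fold) and Top2a at 7.61 CPM (3.04-fold) made up most of that sum. Cdk1, Plk1, Tpx2 and Bub1 of the same list were lower in AG 1, at 0.504, 0.549, 0.577 and 0.648 times the mean of the others. They had 1 to 6 reads each there. Hba-a1, Hba-a2, Mki67 and Top2a were picked after their values were seen. Markers of monocytes and recruited macrophages summed to 53.9 CPM, within the range of 32.6 to 55.8 in the others, and 7 of 14 were above each of them. Of 12 hepatocyte markers none was above each of the others. The part of these other cells in the levels of the 10 genes was not tested.

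In MG vs GC, with AG libraries left out, calls in the same lists were at most 2 a list. Of 30 tested genes found across macrophages 1 was called, Sirpa, the receptor that reads the CD47 signal, which fell from 17.8 ± 0.725 to 12.3 ± 0.648 CPM (edgeR adjusted p = 0.0376). The log2 fold change was negative for 25 of the 30, with a median of -0.20 against 0.00 over all genes. Of 21 tested Kupffer cell genes 1 was called, C6, which fell from 393 ± 22.7 to 203 ± 32.9 CPM (edgeR adjusted p = 0.00352), and 12 were negative. None of 17 tested transcription factors and none of 13 tested complement and Fc receptors was called. Among 12 genes of red cell and iron recycling 1 was called, the iron exporter Slc40a1, which rose from 124 ± 11.1 to 211 ± 22.8 CPM (edgeR adjusted p = 0.00511). Among 10 tested niche signals, ligands from endothelium and stellate cells, 1 was called, Bmp6, which rose from 4.17 ± 0.592 to 7.63 ± 0.697 CPM (edgeR adjusted p = 0.0469), while Csf1, a ligand of Csf1r, was at 14.8 ± 3.63 in MG and 15.5 ± 2.75 CPM in GC. Of 13 tested scavenger receptor genes 2 were called, the fatty acid receptor Cd36, which rose from 58.5 ± 5.22 to 117 ± 27.3 CPM (edgeR adjusted p = 0.0116), and Scara5, a ferritin receptor, which fell from 27.6 ± 4.23 to 11.1 ± 4.66 CPM (edgeR adjusted p = 0.0243). Of 5 tested markers of monocytes and recruited macrophages 1 was called, the fatty acid binding protein gene Fabp5, which fell from 10.8 ± 1.33 to 4.36 ± 0.586 CPM (edgeR adjusted p = 0.00565). Of 12 endothelial markers 1 was called, Bmp2, a ligand that induces hepcidin, which rose from 25.2 ± 2.45 to 39.3 ± 4.10 CPM (edgeR adjusted p = 0.0221). Of 6 tested erythroid markers 1 was called, the haem synthesis gene Alas2, which fell from 87.7 ± 5.64 to 46.4 ± 0.959 CPM (edgeR adjusted p = 0.00101). The other lists held 0 calls. These counts stand against 1.34% of all genes called higher and 1.85% called lower.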

How the data were processed

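RNA sequencing of 9 mouse liver libraries was analysed from 1 table of 49585 genes. Per the file headers, the authors deposited expression values that are whole counts, and in every row they equalled unique exon reads plus multiply mapped exon junction reads; counts of intron and junction reads stand beside them. The authors' deposited RPKM served for levels between genes, and the fold changes and p-values of the deposited comparison where named. The submitters' processing notes name GRCm38 and mm10, with aligner, counter and strand use not given in the sources used here, and 130 columns of per-library values were not used.

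Counts were tested with edgeR 4.0.16 in R 4.3.3 (filterByExpr by group, TMM, quasi-likelihood test, Benjamini-Hochberg adjustment over all tested genes, 0.05). MG vs GC used its 6 libraries, and the other comparisons all 9, then 8 without AG 1. The genes, lists, tests and rule for named genes (all 10 members; of a list, called genes or its most abundant) were chosen with earlier results of these data known. Alternatives used DESeq2 1.42.0, limma 3.58.1 and other filters and libraries. On counts simulated for MG vs GC over 11528 genes, the fit recovered 74.1% of genes changed 2-fold and 98.9% changed 4-fold, with 16 false calls among 183. Changes smaller than 2-fold were not simulated, and the tested members had log2 fold changes between -0.47 and 0.30, so recovery at their size is not known. Motifs were searched in RefSeq promoters of GRCm38.p6. Some genes of the lists are not reported here by name.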

Additional observations from a re-analysis of the deposited data

How the results depend on the processing

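None of the 10 genes was called in any comparison under any alternative run. DESeq2 gave no adjusted p for Marco, Spic and Cd5l in AG vs GC and MG vs AG, nor for Marco in MG vs GC. Those could not be called, nor could Spic in the MG vs GC runs that filtered it out. Of 144 values of single genes in MG vs GC 141 kept their direction. That count includes the threshold of 0.01, which reuses the fold changes of the main fit and could not change a direction. The 3 that reversed were Adgre1 (-0.057) and Vsig4 (0.12) with only GC 3, MG 1 and MG 3, a setting added after seeing the data, and Vsig4, from -0.14 (without MG 1) to 0.0082 (without MG 2) when each library was left out. The number of all genes called in MG vs GC, 373, became 612 with no filter, 109 at a threshold of 0.01, 165 with all 9 libraries and 129 with only GC 3, MG 1 and MG 3, and ranged from 134 (without GC 2) to 398 when each library was left out. In AG vs GC it was 0 and became 44 with no filter, 118 with DESeq2 and 4 with only the groups compared, and 0 to 60 (without AG 3) when each library was left out. In MG vs AG it was 0 and became 38 with no filter, 97 with DESeq2, 2 with limma-voom, 1 with a replicate block and 1 with only the groups compared, and 0 to 130 (without AG 3) when each library was left out. The median of the 10 genes in MG vs AG ranged from -1.67 to -0.27, the latter without AG 1. The cause of these shifts was not tested. Deviations of same-numbered libraries from their group means had correlations of -0.103, 0.48 and 0.33 in MG vs GC. Differently numbered libraries were not compared, and the labels do not say whether equal numbers mark a shared animal or day. Whether the numbers pair the samples was therefore not settled. With the replicate block MG vs GC called 154 genes higher and 233 lower and 0 of the 9 tested members. In limma-voom Marco was at 2.35 in AG vs GC and -2.03 in MG vs AG. Depth limits Spic most, with 5 to 15 reads outside AG 1.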

Other observations

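The genes whose pattern over the 9 libraries was most like the mean of the 10 markers, by the root mean square difference of their log2 deviations, were Tmsb4x, an actin-binding peptide (355 CPM in AG 1 and 69.3 to 85.3 elsewhere), Ptprc, the CD45 antigen (56.3 and 8.44 to 13.2), Ncf1, a subunit of the phagocyte oxidase, Msn, AB124611, Cfp, properdin, Adgre4, Pip4k2a, Arhgap30 and Nckap1l. The difference was 0.12 for Tmsb4x and 0.21 for Nckap1l. AG 1 sets this likeness: the 10 most like genes over the 8 libraries without it shared 0 names with these. The same libraries chose the markers, so the likeness is a description.

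Among genes with at least 50 reads in AG 1, those with the largest mean log2 difference from the other 8 libraries were Marco, Dmbt1, Spic, Ppp1r3g, Pik3r5, Basp1, Pcolce2, Pou2f2, Itgb2 and Rac2. Pou2f2, a transcription factor of B cells, was at 29.2 CPM in AG 1 and at most 3.30 elsewhere, and Rac2, a GTPase of blood cells, at 40.2 and at most 4.56. Dmbt1, a scavenger receptor family gene, was at 79.2 CPM in AG 1 and reached 274 in another library.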
